A study of Drosophila melanogaster with 2 samples.

Results

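Intergenic summits close to genes were the places where GFP-tagged Bsh was recovered from sequence that belongs to no gene but lies beside one. Of 7927 reproducible peaks, 721 (9.10%) had a summit outside every annotated gene span, more than 500 bp from every annotated transcription start site (TSS) and at most 5 kb from the TSS of a protein-coding gene, with annotated transposable elements not counted as genes. A summit is the position inside a peak where the authors placed its maximum. The 1478 intergenic summits comprised these 721 members and 757 distal ones, which lay more than 5 kb from any protein-coding TSS.

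The data are chromatin immunoprecipitation sequencing (ChIP-seq) libraries made from intact Drosophila melanogaster embryos, 10 to 12 h old. The embryos came from the transgenic line bsh-GFP, which stably carries Bsh with GFP fused to its C terminus, and an anti-GFP antibody was used for the precipitation. There were 2 biological replicates of this 1 group, so no treatment or genotype was compared. Whole embryos were taken, so each peak is an average over every cell type present, and cells that bind a site cannot be told apart from cells that do not.

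Bsh, the product of brain-specific homeobox, is a homeodomain transcription factor; in the embryo its gene is known for expression in a restricted set of brain cells, and later it helps to specify neurons of the optic lobe. Homeodomains bind short A- and T-rich DNA words, of which TAATTA is a common core. Intergenic sequence a few kb from a promoter often holds enhancers, which act on a promoter from outside it and not necessarily on the nearest one, so each gene named here is only the gene with the nearest protein-coding TSS.

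The sequences of 5 of the 7 strongest members are shown because they are sites with some of the highest signal values. Each line gives 101 bases centred on the summit, 5′ to 3′ on the plus strand of dm6, read from the RefSeq copy of genome release 6. Capitals mark every match, on either strand, to any of the 18 short motifs searched. The TATAAA word, written TTTATA on the other strand, stands at the strongest member, and both copies of GGTCACAC, a word of core promoters (motif 1), stand at slp2. Of the 10 strongest members, 4 held none of the 18 motifs (the stronger tara summit and those at CG43131, DNAlig3 and sp3). Of all 721 members 510 held at least 1, but sequence away from summits was not counted in this way. In windows 500 bp to 1 side, TTTATG alone was at 12.5%, GAGAG at 12.3%, TAATTG at 11.9% and TATAAA at 11.7%. The 510 thus cannot be read as a trait of the members.
CG31668 summit, chr2L:2202366-2202466: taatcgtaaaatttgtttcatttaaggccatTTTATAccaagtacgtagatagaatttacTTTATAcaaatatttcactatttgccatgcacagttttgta
tara summit, chr3R:16222450-16222550: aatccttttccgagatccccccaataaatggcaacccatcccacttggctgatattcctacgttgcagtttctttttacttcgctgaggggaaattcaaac
CG43131 summit, chr3R:5113224-5113324: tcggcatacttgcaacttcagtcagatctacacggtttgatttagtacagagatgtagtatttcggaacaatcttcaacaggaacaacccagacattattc
tara summit, chr3R:16224457-16224557: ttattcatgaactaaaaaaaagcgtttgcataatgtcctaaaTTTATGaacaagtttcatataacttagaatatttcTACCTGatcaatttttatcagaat
slp2 summit, chr2L:3832466-3832566: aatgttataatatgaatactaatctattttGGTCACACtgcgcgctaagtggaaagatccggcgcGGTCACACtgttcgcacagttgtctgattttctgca

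The next sequences belong to some of the strongest members that hold TAATTA or TATAAA, both of which were more frequent at summits than in sequence 500 bp away. Capitals mark TAATTA in the lines for by and Gr93a, and TATAAA in the line for foxo.
by summit, chr3R:9534292-9534392: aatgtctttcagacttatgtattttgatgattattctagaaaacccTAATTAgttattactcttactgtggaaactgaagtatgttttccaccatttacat
Gr93a summit, chr3R:21828968-21829068: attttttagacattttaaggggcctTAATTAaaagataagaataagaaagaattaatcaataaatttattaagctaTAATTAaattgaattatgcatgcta
foxo summit, chr3R:14053540-14053640: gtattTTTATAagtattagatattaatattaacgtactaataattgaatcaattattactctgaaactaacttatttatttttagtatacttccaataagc

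The last sequences are from 3 of the stronger members with ATGCAAAT, the octamer recognised by POU-domain factors, because its share was the one that differed between near-gene and distal intergenic summits. Capitals mark the octamer, which reads ATTTGCAT on the other strand.
Gr93a summit, chr3R:21828330-21828430: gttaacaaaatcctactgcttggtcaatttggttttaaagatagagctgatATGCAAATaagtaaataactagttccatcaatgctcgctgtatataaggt
CG13898 summit, chr3L:802852-802952: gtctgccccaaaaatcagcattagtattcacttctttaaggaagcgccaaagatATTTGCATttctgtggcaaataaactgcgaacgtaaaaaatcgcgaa
nrv1 summit, chr2L:6788096-6788196: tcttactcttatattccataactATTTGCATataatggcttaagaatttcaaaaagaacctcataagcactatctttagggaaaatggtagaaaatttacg

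The strongest member lay 3750 bp downstream of the TSS of CG31668, a gene known only by its annotation number, in the 5808 bp between COX7AL2 and CG31668. The signal value, a score given to each peak by the authors' peak caller, was 6045 there in the reproducible list, 3448 in replicate 1 and 2615 in replicate 2. Scales differ between lists, so replicates are compared by rank among the 30000 peaks of each replicate list: this summit ranked 8 in replicate 1 and 10 in replicate 2. The same interval held 3 other members, all nearest to COX7AL2, with signal values of 1671, 1566 and 165. Strong and weak summits stood side by side in 1 intergenic interval.

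The gene tara, which encodes a Trithorax-group protein, had 3 members upstream of its TSS. The strongest, 3151 bp upstream, had a signal value of 4177 and ranked 36 in replicate 1 and 31 in replicate 2. The second, 1144 bp upstream, had 3353 and ranked 59 in both replicates. The third, 3742 bp upstream, had 576 in the reproducible list. It overlaps the peak that the strongest summit matched in each replicate, so its own replicate value cannot be told apart. All 3 lie in the 20400 bp between mtSSB and tara.

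CycB, which encodes the mitotic cyclin B, had the second strongest member of all, 3334 bp downstream of its TSS, with 4408 in the reproducible list and ranks of 29 in replicate 1 and 28 in replicate 2. CG43131 followed the stronger tara summit with 3456 and ranks of 53 in replicate 1 and 54 in replicate 2. DNAlig3, a DNA ligase gene, had 2866 with ranks of 98 in replicate 1 and 84 in replicate 2. These 3 members stood high in both replicates, with ranks that differed by at most 14 places.

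The forkhead genes slp1 and slp2, which pattern segments and later mark a temporal stage of neuroblasts, shared 1 interval of 9740 bp. Its strongest summit, 4324 bp upstream of slp2, had 2742 and ranked 107 in replicate 1 and 92 in replicate 2. A summit 2236 bp downstream of the slp1 TSS had 614, and a weaker one 4962 bp upstream of slp2 had 184. A further member 4319 bp downstream of the slp2 TSS lay on its other side, in the interval up to TTLL4B, with 418. Signal values within this locus thus ran between 184 and 2742.

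Other named genes of known role among the 20 strongest members were RasGAP1 (2337), which encodes an inhibitor of Ras, foxo (1890), the forkhead effector of insulin signalling, by (1852), which encodes tensin, jp (1747), which encodes junctophilin, and ph-d (1743), a Polycomb group gene. CG13321 (2427), sp3 (2374), CG33453 (2368), CG43245 (2140), CG10479 (2134), CG5953 (1977), CG4218 (1844) and sano (1800) completed the 20. All 20 had a peak in both replicates. The weakest rank among them was 321 in replicate 1 (jp) and 300 in replicate 2 (ph-d).

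Across all 721 members, signal values spanned 151 to 6045 with a median of 308 and quartiles of 206 and 490. The median was 281 for distal intergenic, 305 for intronic and 337 for promoter summits, and 312 for all reproducible peaks. The members' peaks had a median width of 270 bp, against 258 bp for distal, 271 bp for intronic and 318 bp for promoter peaks. Near-gene intergenic peaks lay between distal and promoter peaks in both medians.

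Strength was compared by the share of summits among the strongest 20% of reproducible peaks. Of the members, 115 (16.0%, exact binomial 95% interval 13.4 to 18.8) were in that set, against 24.6% of promoter summits (703 of 2863). The members' share was lower than that of promoters (two-sided Fisher's exact test, adjusted over 3 comparisons, p = 1.48e-06). It was 16.0% against 14.1% of distal intergenic summits (adjusted exact p = 0.344) and 16.0% against 18.6% of intronic summits (adjusted exact p = 0.164), and neither difference passed the threshold of 0.05. Replicate 1 gave 15.5% for members, 13.2% for distal, 18.6% for intronic and 24.9% for promoter summits. Replicate 2 gave 15.7%, 14.3%, 18.9% and 24.2% in that order. Among the strongest 1000 peaks the members numbered 76, or 10.5% of the members, against 12.6% of all reproducible peaks. With replicate 2 left out, so that the strongest 7927 peaks of replicate 1 took the place of the reproducible list, the difference from intronic summits was -3.91 percentage points (adjusted exact p = 0.0191). These p-values cover counting error over summits, which are not replicates, and not the spread between embryos.

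**Figure D1:**
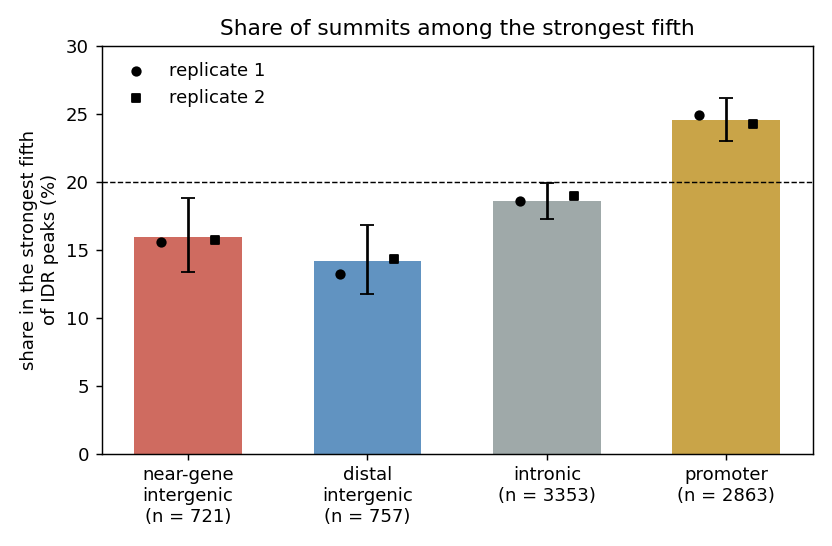
Share of summits (%) among the strongest 20% of reproducible peaks for near-gene intergenic, distal intergenic, intronic and promoter summits; bars show the reproducible list with exact binomial 95% intervals, circles replicate 1, squares replicate 2, and the dashed line 20%. Promoter summits stand above the line at 24.6%, and near-gene and distal intergenic summits stand below it at 16.0% and 14.1%.

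Most members were found again in each replicate. The selection largely fixes this in advance, since the reproducible list was itself made from the replicate lists. A replicate peak overlapping the reproducible peak by at least 1 bp was present in both lists for 712 of 721 members (98.8%, exact binomial 95% interval 97.6 to 99.4). The share was 755 of 757 for distal summits (99.7%) and 99.3% for all reproducible peaks. The members' share was lower than the distal share (two-sided Fisher's exact p = 0.0339). When at least 50% of the peak had to overlap the order turned round, with 92.6% of members and 91.7% of distal summits (exact p = 0.4998). Of the 9 members without a match, 7 lacked one in replicate 1, nearest to Fbp1, CG13689, CG1986, Sems, kek1, CG13813 and Gr93d, and 2 lacked one in replicate 2, nearest to RhoGEF64C and CG30002. Their signal values in the reproducible list lay between 195 and 415, so none was among the strongest members.

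Over the 712 members present in both replicates, log2 signal values correlated with Pearson's r = 0.931 and Spearman's rho = 0.896. This is a description over summits of the same libraries, already selected as reproducible between them. The ranks in the replicates lay within 2-fold of each other for 696 members (97.8%). Some summits share a replicate peak, 22 members in replicate 1 and 20 in replicate 2, so those pairs of values are not separate. The 721 summits lay in 717 distinct peak intervals, since 8 members share an interval with another member.

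**Figure D2:**
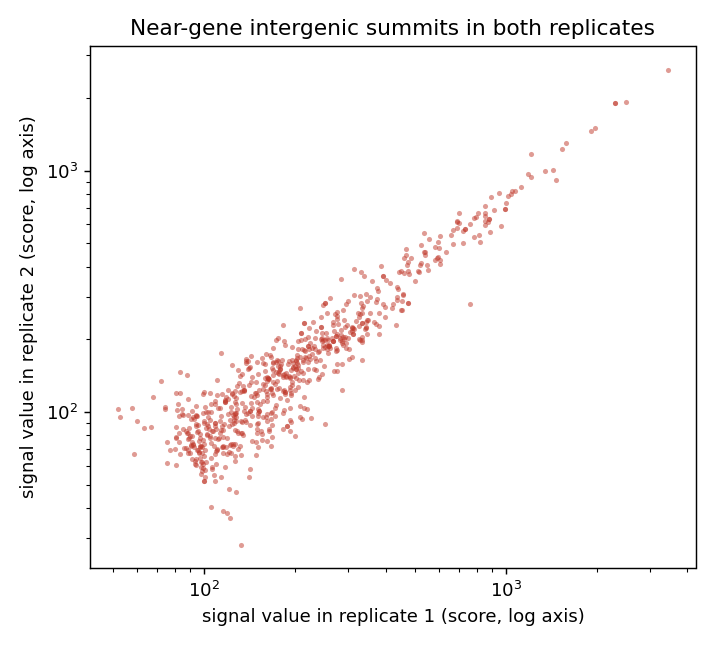
Signal value in replicate 1 (score, log axis) against replicate 2 (score, log axis) for the 712 members with a peak in both replicate lists, 1 point per summit. The points form 1 band with r = 0.931 on the log2 scale, narrowest at the CG31668 summit at the top right and widest among the weak summits.

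Intergenic sequence close to genes held more summits per base than sequence farther away. The members gave 57.0 summits per Mb (exact 95% interval 52.9 to 61.3) over 12644078 bp of near-gene intergenic sequence, against 32.1 per Mb (29.8 to 34.4) over 23618811 bp beyond 5 kb. The ratio was 1.78 (exact conditional binomial test, p = 5.48e-28). Transposable elements cover 6.39% of the near-gene bases and 13.2% of the distal bases, and 20.4% and 30.1% are soft-masked repeats. With transposable elements and soft-masked bases left out, an alternative chosen after seeing the data, the ratio was 1.42 (exact p = 5.48e-09).

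Density was highest nearest the promoter. It was 69.4 summits per Mb at 0.5 to 1 kb, 62.5 at 1 to 1.5 kb and 59.7 at 1.5 to 2 kb, and lay between 43.5 and 58.3 per Mb in each bin from 2 to 5 kb. Among distal summits it was 47.2 per Mb at 5 to 10 kb, 44.1 at 10 to 20 kb and 13.8 beyond 20 kb. The densities on both sides of the 5 kb limit were thus close, with intervals that overlap, while sequence beyond 20 kb held far fewer.

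The members just inside the 5 kb limit lay 4990 bp from the TSS of Tollo (signal value 518), 4967 bp from Lip4 (241), 4966 bp from Noa36 (153), 4965 bp from cv-c (201) and 4964 bp from rpr (413). The summits just outside lay 5011 bp from CG11374 (231), 5013 bp from CG13481 (203), 5053 bp from tal-1A (620), 5087 bp from CG12464 (212) and 5107 bp from Gr93b (176). At the 500 bp limit, members lay 502 bp from CG43401 (322) and 504 bp from a TSS near CG13689 (412). Summits at 500 bp or less counted as promoter summits, such as one 500 bp from the TSS of CG8635 (339). Another lay 500 bp from a different TSS, with CG13251 as the nearest protein-coding gene (416). The next members beyond 500 bp had 490 (Hsc70-3), 504 (Mid1) and 185 (nerfin-1). The next promoter summits, at 500 bp or less, had 317 (Dip-B), 935 (E(spl)m2-BFM) and 472 (CG3348). Signal values on both sides of each limit overlap in these few examples, which are too few to show or exclude a step.

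Members lay upstream of their nearest protein-coding TSS more often than the available bases did. Upstream summits numbered 549 of 721 (76.1%, exact binomial 95% interval 72.9 to 79.2), where 69.3% of the eligible bases lie upstream (two-sided exact binomial p = 6.17e-05). Weighting the eligible bases by distance, chosen after seeing the data, gave 70.5% as the base share (exact p = 6.97e-04). At 0.5 to 1 kb the density was 73.6 per Mb upstream (130 summits) and 38.0 per Mb downstream (9 summits). In 2 of the 9 bins the order was the other way, with 49.99 per Mb upstream and 55.8 per Mb downstream at 2 to 2.5 kb, and 50.9 per Mb upstream and 69.6 per Mb downstream at 3.5 to 4 kb.

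**Figure D3:**
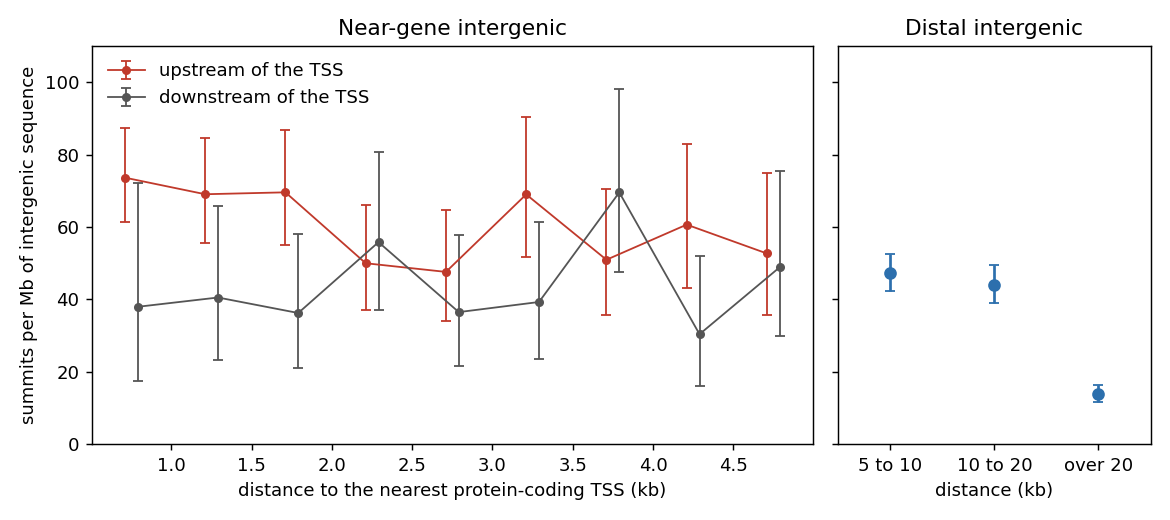
Summits per Mb of intergenic sequence against distance to the nearest protein-coding TSS (kb), in bins of 0.5 kb for near-gene summits upstream and downstream of that TSS and in 3 wider bins for distal summits; bars are exact Poisson 95% intervals. Upstream density is 73.6 per Mb nearest the promoter, and distal density falls to 13.8 per Mb beyond 20 kb.

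Members were found between genes of every arrangement. They lay between divergent genes in 286 cases (39.7%), between genes in tandem in 347 (48.1%) and between convergent genes in 87 (12.1%), and 1 lay beyond the last gene of an arm. Distal summits had 24.4%, 51.7% and 23.9% in the same order. The interval between the flanking genes had a median of 8535 bp for members and 30881 bp for distal summits. A non-coding gene could be nearer: the closest TSS of any kind was that of a non-coding gene for 107 members (14.8%) and for 54.3% of distal summits. The distance rule bears on all of these contrasts between the classes, so they are given as a description. Within 1 kb of another summit lay 179 members (24.8%), against 21.0% of distal summits.

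The members were spread over 2L (167), 2R (105), 3L (196), 3R (158), chromosome 4 (7) and X (88). Per Mb of near-gene intergenic sequence, 3L had 74.5 (exact 95% interval 64.4 to 85.7), 2L 65.6 (56.0 to 76.3) and 3R 50.3 (42.7 to 58.7). Below them, X had 46.0 (36.9 to 56.7) and 2R 45.3 (37.1 to 54.9). The interval of 3L lies above those of 3R, X and 2R, while that of 2L overlaps those of 3L, 3R and X. Chromosome 4, at 74.3 per Mb, has an interval of 29.9 to 153 that overlaps all of them.

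Members were scattered over many genes, and a few loci held several. Of 13945 protein-coding genes, 547 (3.92%) had the nearest TSS to at least 1 member: 415 had 1 member, 103 had 2, 19 had 3, 7 had 4 and 3 had 5. The 3 with 5 members were Gr93a, CG13898 and CG7484. Those with 4 were CG43131, CG4218, Rh5, chinmo, CG7320, CG42693 and Cpr100A. By interval between flanking genes, 361 intervals held 1 member, 95 held 2, 37 held 3, 11 held 4 and 3 held 5. Those 3 were RFeSP to chinmo, CG7484 to Crtc and CASK to Gr93a.

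Gr93a, a gustatory receptor gene, had the highest summed signal of the genes with 5 members. Its 2 strongest members, 3485 and 4123 bp upstream, had signal values of 1603 and 1441 in the reproducible list. The first had 915 in replicate 1 and 687 in replicate 2, and the second had 797 and 643. The third, 1942 bp downstream of the TSS, had 610, with 332 in replicate 1 and 270.5 in replicate 2. The remaining 2, upstream, had 351 and 283. Members nearest to Gr93b (1) and Gr93d (3) lie in the same cluster of genes, with signal values between 195 and 449. The strongest of the 9 members of this cluster thus lay at its Gr93a end, which also held weaker ones.

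The CG7484 members all lay downstream of its TSS, between 1593 and 4506 bp, with signal values from 155 to 1113. Those of CG13898 spanned 742 to 3724 bp, with 317 to 1093, and 2 of the 5 lay upstream. At Rh5, which encodes a blue-sensitive opsin, 2 of the 4 members lay upstream and the values spanned 252 to 1316. At chinmo, which encodes a BTB zinc finger protein of temporal neuron identity, all 4 lay upstream, at 1023 to 2478 bp, with 215 to 1309. The chinmo member at 1646 bp shares its peak interval and its replicate peaks with the one at 1847 bp.

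Of 14 gene lists, those of development were represented above the background of 3.92% of all protein-coding genes, which is a description without a test. That background does not allow for how much intergenic sequence lies near each gene. Homeodomain factors of neurons and head had a member at 14 of 76 genes (18.4%). The strongest was zfh2 (1320, ranks 587 and 421 in replicates 1 and 2), followed by zfh1 (596), the Six-family gene Optix (453) and the Iroquois gene caup (351). The other 10 genes of the list had 1 member each, with signal values from 152 to 320. They include bap and Poxm, so the list is wider than its name. Of the members, 16 (2.22%) were nearest to a gene of this list, against 61 of the distal summits (8.06%). The Hox list had bcd (321) and Ubx (191), so 2 of 11 genes.

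The list named for other neural and temporal transcription factors had a member at 14 of 60 genes (23.3%), led by slp2, chinmo, the forkhead gene bin (762) and slp1. It also takes in genes that are not specific to neurons, such as bin. The list of the Notch pathway and Enhancer of split had 4 of 25 genes (16.0%). They were E(spl)malpha-BFM (1442), a Notch target, fng (1098), which modifies the Notch receptor, the Notch target E(spl)m3-HLH (722) and the Notch ligand Ser (196). Signalling ligands and receptors had 12 of 45 (26.7%), led by the Wnt receptor fz (1365), the PDGF/VEGF-like ligand Pvf3 (713), the glypican dally (664) and the BMP ligand dpp (410). Axon guidance and surface proteins had 12 of 69 (17.4%), with the Slit receptor robo2 (1193), comm2 (606), the Toll-family gene Tollo (518) and Sema5c (429). Mesoderm, muscle and trachea genes had 7 of 36 (19.4%), led by Act87E (711), srp (541), how (476) and trh (304). Of the members, 3.05% were nearest to the list of other neural and temporal factors, against 4.89% of distal summits. The shares were 1.94 and 2.77% for signalling, 2.22 and 2.91% for axon guidance, and 1.11 and 3.04% for mesoderm, muscle and trachea. The order was the other way for the Notch list (0.832 and 0.528%) and the Hox list (0.277 and 0.132%).

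Lists of housekeeping and terminal genes were near or below the background of 3.92%. Ribosomal protein genes had 1 of 93 (1.08%, RpS23 with 417) and mitochondrial ribosomal protein genes 1 of 75 (1.33%, mRpL21 with 297). Chemosensory receptors had 5 of 179 genes (2.79%) but 12 members, since the Gr93 cluster holds 9; the others lay at Gr89a (838) and Ir67b (658). The Cpr cuticle proteins had 4 of 95 (4.21%), Cpr100A with 4 members of up to 324, Cpr65Eb (274), Cpr67Fb (249.5) and Cpr65Az (185). The DIP and dpr families had 1 of 32 (3.13%, dpr20 with 536). The P450, GST and UGT genes had 6 of 155 (3.87%), led by Cyp6v1 (698), Ugt37C1 (658), Ugt36D1 (633) and Ugt37A1 (475). Serine protease and serpin genes had none of 65.

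Sequence at the summits was A- and T-rich. GC content in the 101 bp around the member summits averaged 31.0 ± 8.48% and 42.2 ± 9.94% in the 101 bp centred 500 bp to 1 side (SD, n = 721 summits). It was lower at the summit than in its own flank in 572 members (79.3%) and higher in 138 (two-sided exact sign test, p = 1.34e-63; the comparison was chosen after the values were seen). The other classes had the same dip: 29.8 against 42.8% for distal, 31.3 against 42.1% for intronic and 32.9 against 45.1% for promoter summits. Among members the mean stayed between 30.2% and 32.1% in each of 5 groups by signal value. The strongest summit, at CG31668, had 26.7% at the summit and 46.5% in its flank, while the stronger tara summit had 44.6% and 17.8%, the reverse order.

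**Figure D4:**
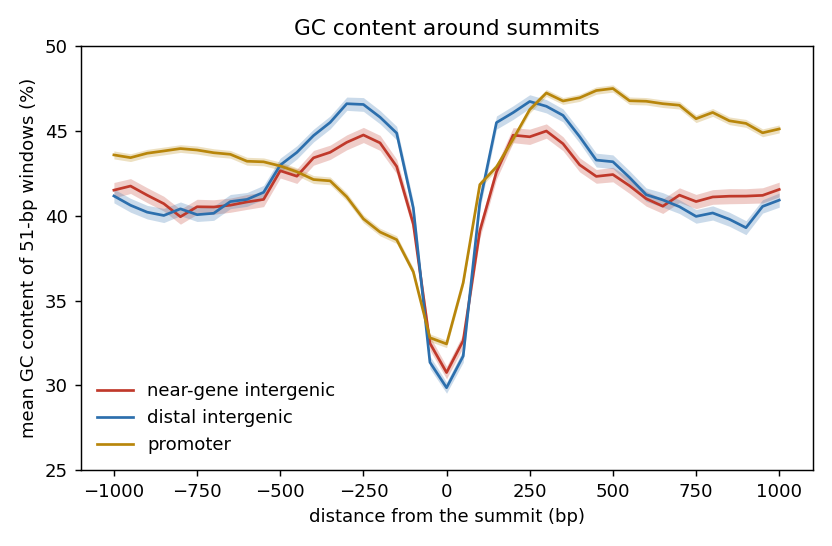
Mean GC content (%) of 51-bp windows against distance from the summit (bp, positive in the direction of the nearest gene's transcription) for near-gene intergenic, distal intergenic and promoter summits; shading is the standard error over summits. All 3 classes dip within about 100 bp of the summit. Beside the dip the distal curve stands above the near-gene curve, at 46.6 against 44.3% at -300 bp and 45.5 against 42.6% at 150 bp.

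The 18 motifs were counted within 50 bp of each summit and in the flank window of the same width. Of these, 4 (22.2%) were more frequent at the members' summits and 1 (5.56%) was less frequent, by McNemar's exact test with Benjamini-Hochberg adjustment at 0.05. TATAAA, the TATA-box word, was at 27.3% of summits and 11.7% of flanks (odds 2.77, adjusted exact p = 3.49e-12). The homeodomain core TAATTA was at 11.2 and 6.38% (odds 1.81, adjusted exact p = 0.0112). AGATAA, a word read by zinc fingers such as Serpent, was at 9.85 and 5.55% (odds 1.79, adjusted exact p = 0.0173), and TTTATG, bound by Caudal- and Abd-B-type homeodomains, at 17.5 and 12.5% (odds 1.46, adjusted exact p = 0.0408). GAGAG, the GAGA-factor word, was less frequent, at 7.21 and 12.3% (odds 0.526, adjusted exact p = 0.00799). TAATTG, another homeodomain word, was at 12.1 and 11.9% (adjusted exact p = 1). The K50 homeodomain word TTAATCC was lower at summits, at 0.277 and 0.832% (odds 0.333, adjusted exact p = 0.434). So was the Homothorax word TGACAG, at 2.36 and 4.44% (odds 0.5, adjusted exact p = 0.0918), and neither passed.

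TATAAA was also called with each replicate left out. TAATTA was called without replicate 2 but not without replicate 1 (odds 1.53, adjusted exact p = 0.138). The other 3 of the 5 words were called in neither case, with adjusted exact p between 0.0879 and 0.634. TATAAA was at 27.7% of distal, 26.2% of intronic and 24.6% of promoter summits, and TAATTA at 10.8, 11.3 and 11.0% in that order, and neither share differed from the members' past the threshold.

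All 4 words that were more frequent at summits hold 5 or 6 A or T letters, and the flanks were richer in G and C. The same test was run on every 6-letter word. Of 2080 6-mers (each with its reverse complement), 213 (10.2%) were more frequent and 409 (19.7%) less frequent at summits. Among the 36 made of A and T alone, 35 were more frequent. Among those with 5 such letters it was 132 of 192, with 4 it was 42 of 492, with 3 it was 4 of 640, and none with fewer. The word AATATA led, at 30.8% of summits and 11.1% of flanks (odds 3.54, adjusted exact p = 1.86e-16). Among the 36 A/T-only words TATAAA ranked 11 by odds and TAATTA ranked 33, where the median odds were 2.31. When only the 128 members with summit and flank within 5 GC percentage points were taken, none of the 18 motifs passed, and neither did any 6-mer. At unadjusted p under 0.05 by the same exact test, 0 of the 18 motifs and 43 of the 2080 6-mers did. A word held by few of the 128 members cannot reach that threshold in this exact test. These counts therefore do not show whether words differ once GC is matched.

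**Figure D5:**
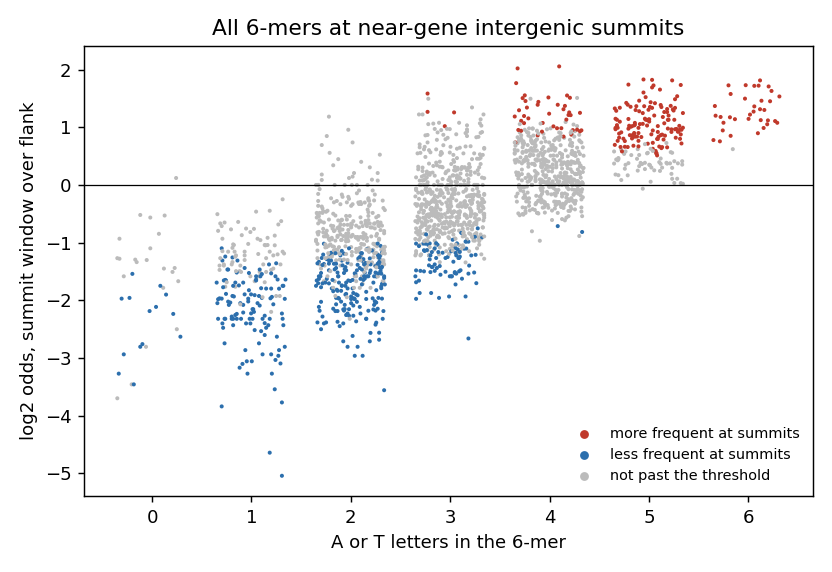
Log2 odds of each 6-mer in the 101 bp at the member summit over the flank window, against its number of A or T letters (points spread sideways for visibility); red words passed as more frequent, blue as less frequent, and grey did not pass the adjusted threshold of 0.05. The odds climb with the A and T content: 35 of 36 words of A and T alone are red.

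Between classes, 1 of the 18 motifs (5.56%) differed in share between members and distal summits. The octamer ATGCAAAT was at 23 members (3.19%, exact 95% interval 2.03 to 4.75) and at 6 distal summits (0.793%, 0.291 to 1.72; two-sided Fisher's exact test, adjusted p = 0.0191). The 23 members were all in both replicates, 19 lay upstream, and their median signal value was 322. Over all members 98.8% were in both replicates, 76.1% lay upstream and the median was 308. Against their own flanks the octamer did not pass, at 3.19% of summits and 1.25% of flanks (McNemar's exact test, adjusted p = 0.0602). The call was lost under 6 alternatives, among them those without replicate 1, where the difference was 1.60 percentage points (adjusted exact p = 0.683), and without replicate 2, where it was 1.10 points (adjusted exact p = 0.624); it is 2.40 points in the reproducible list. At intronic summits the octamer was at 2.09% (unadjusted Fisher's exact p = 0.0749), and no motif differed there by the adjusted Fisher's exact test. The 1 motif with an unadjusted exact p under 0.05 was TTAATCC, at 0.277% of members and 1.28% of intronic summits (p = 0.0167). Against promoter summits, 3 motifs (16.7%) differed: TATCGATA, a word of housekeeping promoters, at 0.416% of members and 2.31% of promoters (adjusted exact p = 0.00646), TTTATG at 17.5 and 12.9% (adjusted exact p = 0.0185), and the octamer at 3.19 and 1.54% (adjusted exact p = 0.0323).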

How the data were processed

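The ChIP-seq libraries came from 1 group in 2 biological replicates. The deposited text files record peak calls for each replicate and for the pooled replicates, all with 1 control file, and an IDR set (peaks reproducible between replicates) made from those lists, on assembly dm6. Neither the aligner nor the peak caller nor the IDR threshold is given in the sources used here. The deposited signal value is a score from the authors' peak caller, on a scale that differs between lists. The deposited summit position is an offset in bp from the peak start. Replicate lists hold 30000 peaks each, the depth is unknown, and the control sample was not analysed here. Embryo age follows the source name, since the age field of the labels holds no plausible age.

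Summits were placed against Ensembl release 115 models, and sequence is from RefSeq genome release 6. Exact binomial and Poisson 95% intervals cover counting error only. Motifs were sought on both strands, and matches of different motifs may overlap: TAATTA and TAATTG for homeodomains, TTAATCC for K50 homeodomains, TTTATG for Caudal and Abdominal-B, TGACAG for Homothorax, GAGAG for the GAGA factor, CAGGTA for Zelda, TATCGATA for DREF, GGTCACAC for M1BP, TATAAA for the TATA box, AACCGGTT for Grainy head, ATGCAAAT for POU factors, AGATAA for Serpent-type factors, CAGCTG and also CAGATG for bHLH factors, GTGGGAA for Su(H), TGANTCA for AP-1, and ACACAC as a repeat. Named genes are those nearest to the 20 strongest members, the 10 genes nearest to most members, and in each of 14 lists the 4 genes with the strongest member. Printed sequences are a selection from the strongest members and from the strongest that hold the homeodomain core, the TATA-box word or the octamer; 1 sequence is not reported here. Other genes (at the limits, without a replicate match, flanking an interval, or sharing an interval or cluster with a named one) were named after their values were seen. The members and lists were chosen with earlier results of these data known. Python 3.11.15, numpy 2.4.6, scipy 1.17.1 and matplotlib 3.10.9 were used. The McNemar calls of motifs and 6-mers were tested on simulated sequence with a planted word, and the other tests were not simulated. That sequence had equal base frequencies at summit and flank, unlike the data. Alternatives were the 3963 strongest IDR peaks, each replicate left out, other distances, windows, flanks and overlaps, and gene 5′ ends only. Leaving out repeats, matching GC and weighting base shares by distance were added after seeing the data.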

Additional observations from a re-analysis of the deposited data

How the results depend on the processing

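The lower share of members than of promoter summits among the strongest 20%, the higher density near genes, the upstream share and the lower GC content at summits kept their direction and passed under every alternative run on them. The 622 6-mers called became 276 with the 3963 strongest IDR peaks, 295 with a limit of 3 kb, 209 with windows of 25 bp either side and 0 with summit and flank within 5 GC points. The 5 motifs called became 1 with the strongest peaks, 1 at 3 kb, 1 with 25 bp and 3 with 100 bp windows, and between 1 and 2 with a replicate left out. They became 0 with GC matched, where the odds of TAATTA turned to 0.667. There, 43 of 2080 6-mers and 0 of 18 motifs had an unadjusted exact p under 0.05, which rare words cannot reach with 128 members. The 1 motif that differed from distal summits became 0 with the strongest peaks, beyond 1000 bp from every TSS, with 25 bp and with 100 bp windows, and 0 without either replicate. At an unadjusted Fisher's exact p under 0.05 those settings held 1, 1, 0 and 2 motifs, and 1 without replicate 1 and 0 without replicate 2. The share in both replicates was 98.9% with the strongest peaks (exact p = 0.124), 99.3% beyond 1000 bp (exact p = 0.412) and 92.6% when at least 50% of the peak had to overlap. Among the settings with fewer summits than the 721 members were the strongest peaks (356), beyond 1000 bp (544), 3 kb (478) and GC matched (128). Other causes were not tested. With a replicate left out, the share in both lists could not be computed. No paired analysis was possible because there is 1 group.

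Depth is unknown, so no limit on missed sites can be set, and the nearest gene is not shown to be a target.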
